A study of Mus musculus with 6 samples.

Results

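The transcripts described here come from 10 genes that were already expressed in the wild-type embryonic cortex. Each stood at least 2-fold above the wild-type mean in every library of a conditional knockout of Hdac1 and Hdac2. The 10 genes are Prr15, Gchfr, Gm2a, Tcaf2, Mmp17, Lonrf3, Prkcb, Tppp, Fig4 and AK043676. They are 10 of 12041 gene symbols in the table, each with 1 row. They were chosen on the measured values of this same comparison, so their levels and ratios are given as a description, with no test. RNA was sequenced from the cortex of C57BL/6 mouse embryos at embryonic day 12.5, in 3 wild-type libraries (WT: HC-1, HC-8, HC-10) and 3 libraries of a conditional knockout of both Hdac1 and Hdac2 (cKO: HM-5, HM-13, HM-16). The Cre driver, the floxed exons, the genotype of the WT embryos beyond their label and the number of embryos per library were not given in the sources used here. Columns of the table carry other names than the samples: HC was taken to mean control and HM mutant.

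HDAC1 and HDAC2 are closely related enzymes that remove acetyl groups from histone tails as the catalytic subunits of the Sin3, NuRD and CoREST corepressor complexes. Histone acetylation at promoters and enhancers generally accompanies transcription, and in the embryonic brain the pair acts redundantly in neural progenitors. The 10 genes belong to no single pathway. They encode a regulator of tetrahydrobiopterin synthesis, a lysosomal lipid carrier, an endosomal lipid phosphatase, a protein kinase, a microtubule-binding protein, a cell-surface protease, an ion channel partner, a RING finger protein, a proline-rich protein and a transcript known by its cDNA name.

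The labels were checked on the targeted genes. Hdac1 fell to 25.6% of its WT level (adjusted p = 0.000307) and Hdac2 to 23.6% (adjusted p = 0.00441; limma with Benjamini-Hochberg adjustment). Reads recovered from the table ranged from 9712556 to 11922665 per library. Ribosomal RNA (Rn45s) made up 29.7% of the reads of HM-13 and 0.506% to 2.48% elsewhere, and residual Hdac1 and Hdac2 were highest in HM-13 among cKO libraries. Xist was high in HC-8 and HM-16 and near 0 in the other 4 libraries. Of the labelled tissue's markers, 7 of 8 for cortical progenitors and 8 of 8 for cortical neurons were in the table, with summed levels of 874 to 887 FPKM (fragments per unit of transcript length and of depth) and 1094 to 1435 FPKM in WT.

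WT means of the 10 genes ran from 1.62 FPKM (Gchfr) to 16.6 FPKM (Fig4), with a median of 5.74 FPKM, below the median of 8.38 FPKM over the 9359 genes that passed a filter of at least 1 FPKM in at least 3 libraries. All 10 passed this filter. Their cKO means ran from 10.5 FPKM (Gchfr) to 39.7 FPKM (Prr15), and the ratio of cKO to WT means from 2.21 (Fig4) to 6.46 (Gchfr). In each of the 10 genes the lowest cKO library stood above the highest WT library, by 2.01 times in Fig4 up to 5.09 times in Prr15. Over all genes tested, 19.5% had all 3 cKO libraries above all 3 WT libraries. Of the 8514 symbols with at least 1 FPKM in every WT library, 80 (0.94%) had every cKO library at 2 times the WT mean or more, and the 10 are among these 80. Both shares rest on the values that chose the genes. Just inside the bound on lowest cKO over highest WT lay Fig4 at 2.01, and just outside the gene Tagln2 at 1.98. A further 38 symbols met the same bound and are not among the 10.

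**Figure D1:**
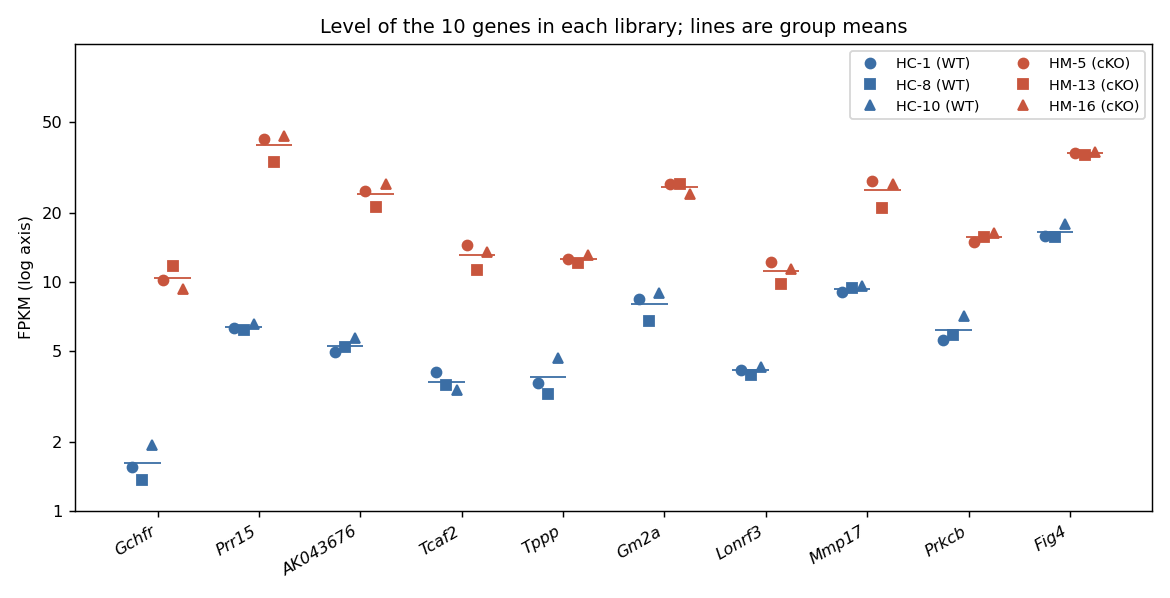
FPKM of the 10 genes in each library on a log axis, with WT and cKO libraries as separate points and lines at the group means. In each gene the 3 cKO points lie above the 3 WT points, and Gchfr has the lowest WT level at 1.62 FPKM.

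**Figure D2:**
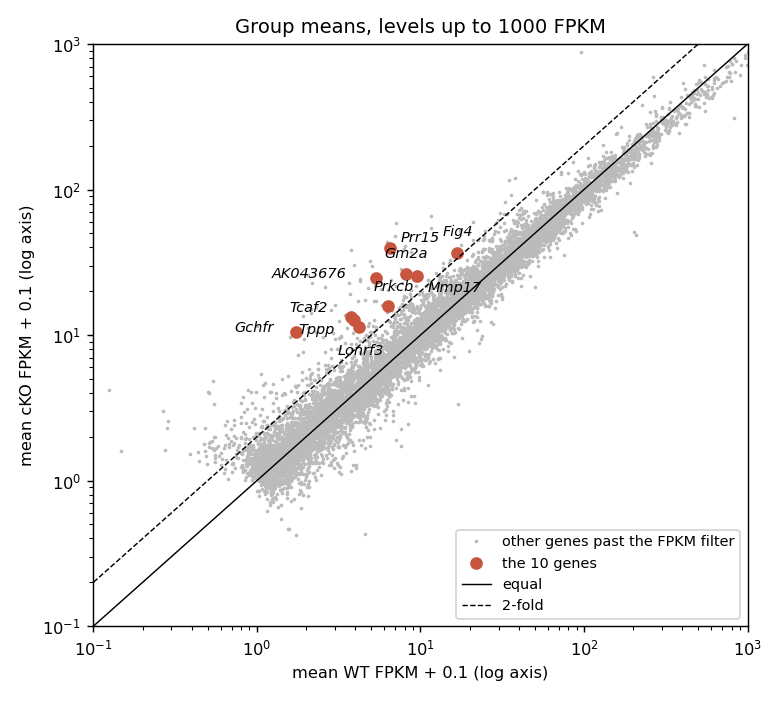
Mean FPKM in cKO against mean FPKM in WT for all genes past the filter on log axes, after adding 0.1 FPKM, with lines of equality and of 2-fold. The 10 genes lie above the 2-fold line at WT means between 1.62 and 16.6 FPKM.

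Gchfr (ENSMUST00000057454; chr2:119167773-119172390, plus strand, GRCm38, 3 exons) encodes the feedback regulatory protein of GTP cyclohydrolase I, through which tetrahydrobiopterin inhibits its own synthesis and phenylalanine stimulates it. Gchfr stood at 1.55, 1.37 and 1.94 FPKM in WT against 10.3, 11.8 and 9.35 FPKM in cKO, always in the order HC-1, HC-8, HC-10 and HM-5, HM-13, HM-16. The groups did not overlap, and HM-13, the lowest cKO library for 7 of the 10 genes, was the highest here. The means were 1.62 ± 0.29 FPKM (SD, n = 3) and 10.5 ± 1.25 FPKM (SD, n = 3), a ratio of 6.46, the highest of the 10. This level rested on few reads: 35 over the 3 WT libraries (exact Poisson 95% interval 24.4 to 48.7, counting error only) and 199 over the 3 cKO libraries (172 to 229). The 250 bases upstream of its RefSeq start site (chr2:119167538-119167787, plus strand, RefSeq promoter table on GRCm38.p6) are shown because they hold the most CpG dinucleotides of the 8 promoters available, 27, with 66.4% G and C. Capitals mark GC boxes, the sequence GGGCGG or its complement CCGCCC, a motif known to bind Sp1-family factors.
Gchfr: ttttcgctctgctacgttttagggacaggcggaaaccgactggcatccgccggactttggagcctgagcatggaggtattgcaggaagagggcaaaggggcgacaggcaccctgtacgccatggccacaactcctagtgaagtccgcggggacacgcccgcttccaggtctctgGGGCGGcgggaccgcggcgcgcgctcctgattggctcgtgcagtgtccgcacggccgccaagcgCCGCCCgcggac

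The enzyme that Gchfr regulates, GTP cyclohydrolase I, is encoded by Gch1, which commits GTP to tetrahydrobiopterin, the cofactor of the aromatic amino acid hydroxylases and nitric oxide synthases. Gch1 stood at 0.997, 0.681 and 0.815 FPKM in WT against 3.999, 2.73 and 3.22 FPKM in cKO. It rose 3.99-fold (log2 difference 1.23 ± 0.14 SE on the log2(FPKM + 1) scale, adjusted p = 0.00299, limma). All 3 WT libraries lay below 1 FPKM, with 24 to 31 reads, so Gch1 passed the filter through the cKO libraries alone. Qdpr, the dihydropteridine reductase that recycles the cofactor, rose from 85.9 ± 4.08 to 153 ± 8.44 FPKM (SD, n = 3), a ratio of 1.79 (adjusted p = 0.00103, limma). Of 17 genes listed for synthesis, recycling and use of the cofactor, 10 were tested, 2 rose and 0 fell, with a median log2 difference of -0.02 against -0.01 over all genes tested. Over all genes 9.62% rose, 8.39% fell and 18% were called in either direction. The enzymes of the later steps of synthesis did not pass the test: Pts measured 55.5 and 57.7 FPKM in WT and cKO, and Spr 3.34 and 3.53 FPKM.

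Gm2a (ENSMUST00000000608; chr11:55098115-55113029, plus strand, 4 exons) encodes the GM2 activator, a lysosomal protein that lifts ganglioside GM2 out of the membrane and presents it for degradation. Gm2a stood at 8.42, 6.77 and 8.95 FPKM in WT against 26.9, 26.8 and 24.4 FPKM in cKO, with HM-16 the lowest of the latter. The means were 8.05 ± 1.14 and 26.0 ± 1.43 FPKM (SD, n = 3), a ratio of 3.23. The 250 bases upstream of its RefSeq start site (chr11:55097735-55097984, plus strand) are shown because they hold 5 GC boxes, the most of the 8 promoters, all read as CCGCCC on the strand of the gene. That RefSeq start lies upstream of the GENCODE start at 55098115, so the window does not adjoin the listed transcript.
Gm2a: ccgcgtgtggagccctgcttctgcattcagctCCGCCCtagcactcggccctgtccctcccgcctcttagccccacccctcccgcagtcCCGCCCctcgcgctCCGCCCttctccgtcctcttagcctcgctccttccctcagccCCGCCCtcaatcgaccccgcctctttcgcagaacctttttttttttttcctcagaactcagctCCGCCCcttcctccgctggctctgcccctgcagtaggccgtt

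Other genes of ganglioside metabolism were measured in the same libraries. Neu1, the lysosomal sialidase, rose from 6.73 ± 0.456 to 11.7 ± 0.85 FPKM (SD, n = 3; ratio 1.74, adjusted p = 0.00475, limma). B4galt5, a lactosylceramide synthase at the start of ganglioside synthesis, rose 1.39-fold (adjusted p = 0.0307, limma). Of 26 genes listed for ganglioside synthesis and sphingolipid degradation 18 were tested, 2 rose and 0 fell, with a median log2 difference of 0.04. The other 16 did not pass the test. Among them Hexa measured 31.8 and 30.6 FPKM in WT and cKO (adjusted p = 0.756, limma). Among all genes tested 9.62% rose and 8.39% fell. The call on B4galt5 was lost in 4 of 6 fits that left out 1 library (adjusted p up to 0.113). The call on Neu1 held in all 6.

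Fig4 (ENSMUST00000043814; chr10:41188172-41303260, minus strand, 23 exons) encodes a phosphoinositide phosphatase that works in one complex with the kinase PIKfyve and the scaffold VAC14 to control phosphatidylinositol 3,5-bisphosphate on endosomes and lysosomes. Loss of Fig4 causes neurodegeneration with vacuoles in mice. Fig4 stood at 15.99, 15.8 and 17.9 FPKM in WT against 36.9, 36.1 and 37.1 FPKM in cKO. It had the highest WT level of the 10, the lowest ratio, 2.21, and the smallest spread between cKO libraries, a coefficient of variation of 1.44%. The means were 16.6 ± 1.20 and 36.7 ± 0.527 FPKM (SD, n = 3). Its 250 upstream bases (chr10:41303242-41303491, minus strand) are shown as the contrasting case: 46.4% G and C and 8 CpG dinucleotides, the fewest of the 8, with 2 GC boxes.
Fig4: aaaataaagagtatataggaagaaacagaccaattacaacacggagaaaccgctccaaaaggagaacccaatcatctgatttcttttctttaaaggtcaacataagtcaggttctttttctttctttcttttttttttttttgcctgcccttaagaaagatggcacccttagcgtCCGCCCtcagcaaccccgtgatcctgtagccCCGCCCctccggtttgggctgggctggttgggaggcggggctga

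The partner Vac14 measured 2.86 and 3.86 FPKM in WT and cKO and did not pass the test (adjusted p = 0.211, limma). Mcoln1, a lysosomal calcium channel that the lipid opens, rose 1.24-fold (adjusted p = 0.0300), and Wipi1, which binds phosphoinositides during autophagy, rose 1.64-fold (adjusted p = 0.0394; both limma). Of the 22 genes listed for this lipid 10 were tested, 2 rose and 0 fell, with a median log2 difference of 0.10. The shares among all genes tested were 9.62% and 8.39%. Neither call was stable when 1 library was left out. Mcoln1 lost its call in 5 of 6 such limma fits (adjusted p up to 0.124) and Wipi1 in 4 of 6 (up to 0.137).

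Prkcb (ENSMUST00000143692; chr7:122288751-122634402, plus strand) encodes protein kinase C beta, a kinase opened by calcium and diacylglycerol. Prkcb stood at 5.62, 5.86 and 7.12 FPKM in WT against 15.1, 15.8 and 16.4 FPKM in cKO. The means were 6.20 ± 0.808 and 15.8 ± 0.674 FPKM (SD, n = 3), a ratio of 2.54. The gene rests on more reads than any other of the 10, from 558 to 1528 per library. The listed transcript is annotated as a target of nonsense-mediated decay, and the length implied by the values was 2.65 times its length, so the level of Prkcb per length relative to other genes is uncertain. The ratio between groups does not depend on that length.

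Among genes of the kinase C family, Prkci, an atypical isoform, rose 1.33-fold (adjusted p = 0.0137), and Prkcd, an isoform that needs no calcium, rose 3.11-fold (adjusted p = 0.0156; both limma). Prkcd was named after its values were seen, and lay under 1 FPKM with 10 to 20 reads in every WT library. Prkca, the calcium-dependent isoform nearest to Prkcb in structure, measured 2.92 and 3.92 FPKM and did not pass the test (adjusted p = 0.225). Upstream, Plcg2, a phospholipase C that makes diacylglycerol, rose from 1.93 ± 0.276 to 4.42 ± 1.08 FPKM (SD, n = 3; ratio 2.30, adjusted p = 0.0152). Of the substrates, Nrgn, a postsynaptic calmodulin-binding protein, rose 2.11-fold (adjusted p = 0.0254) and Marcksl1 fell to 77.9% of its WT level (adjusted p = 0.0116). The list of 34 activators and substrates had 16 tested genes, of which 3 rose and 1 fell, with a median log2 difference of 0.21. Among all genes tested 9.62% rose and 8.39% fell. Prkd1, a kinase downstream of kinase C, also rose and was named after its values were seen (1.44-fold, adjusted p = 0.0311, lost in 4 of 6 fits without 1 library, up to 0.119). Prkci, Plcg2 and Marcksl1 lost their calls without HM-5 or without HM-16 (adjusted p up to 0.0658, 0.0686 and 0.0658), and Nrgn also without HC-8 or HC-10 (up to 0.0980; all limma).

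Protein kinase C beta and the lysosomal genes are also known in microglia. The markers of microglia and macrophages, 7 of 11 of which were in the table, summed to 55.4 to 70.6 FPKM in WT and 76.8 to 88.1 FPKM in cKO, a ratio of 1.35 with no overlap, and none of the 7 was at 0. Of these, C1qb and Tyrobp rose (named after their values were seen), while Cx3cr1, C1qa, C1qc, Fcer1g and Mrc1 did not pass the test (limma). Among all genes tested 9.62% rose, and 19.5% had all 3 cKO libraries above all 3 WT libraries. C1qb lost its call in 3 of 6 fits without 1 library (adjusted p up to 0.0703) and Tyrobp without HM-16 (0.0625; limma), and both lost it with library totals. Summed markers of endothelium and pericytes (ratio 1.15), erythroid cells (1.28), meninges and mesenchyme (1.12) and ventral telencephalon (0.777) overlapped between groups. The part of microglial RNA in the levels of Prkcb, Gm2a and Fig4 was not tested. In bulk RNA, more cells of a type and more RNA per cell cannot be told apart.

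Tppp (ENSMUST00000022057; chr13:74009407-74035753, plus strand, 4 exons) encodes the tubulin polymerization-promoting protein, which bundles microtubules and is best known from oligodendrocytes. Tppp stood at 3.63, 3.24 and 4.65 FPKM in WT against 12.6, 12.1 and 13.2 FPKM in cKO. The means were 3.84 ± 0.727 and 12.6 ± 0.561 FPKM (SD, n = 3), a ratio of 3.29. WT libraries spread more, relative to their mean, than for any other of the 10 genes. Of the 27 genes of tubulin acetylation and microtubule polymerisation 15 were tested, 0 rose (unadjusted p under 0.05 for 2 genes in either direction) and 1 fell, with a median log2 difference of -0.07. The shares among all genes tested were 9.62% risen and 8.39% fallen. The gene that fell was Stmn1, a tubulin-sequestering protein of progenitors and neurons, to 77.2% of its WT level (adjusted p = 0.0334, limma), a call lost in 4 of 6 fits without 1 library (up to 0.128). The paralogue Tppp3 measured 10.9 and 9.58 FPKM and did not pass the test. Summed levels of astrocyte and oligodendrocyte markers overlapped between groups (9.90 to 13.9 FPKM in WT and 10.7 to 15.8 FPKM in cKO; 5 of 9 in the table; Olig1 listed at 0 in 1 library). Most of this sum was Mbp, a myelin protein gene, which rose from 7.12 to 11.4 FPKM (adjusted p = 0.0351, limma; lost in 4 of 6 fits without 1 library, up to 0.130, and with library totals). The lineage factors Olig2, Olig1 and Sox10 and the myelin gene Mog had ratios of 0.577, 0.194, 0.0937 and 0.561, where Olig2 did not pass the test and the other 3 were below the filter. These 5 genes were named after their values were seen, and their part in the level of Tppp was not tested. Those of cortical neurons were 1094 to 1435 FPKM in WT and 802 to 1196 FPKM in cKO.

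Mmp17 (ENSMUST00000031390; chr5:129584169-129611099, plus strand, 10 exons) encodes a membrane-type matrix metalloproteinase held at the cell surface by a glycolipid anchor. Mmp17 stood at 9.04, 9.43 and 9.62 FPKM in WT against 27.8, 21.1 and 26.9 FPKM in cKO. HM-13 was the lowest cKO library, and still lay 2.20 times above the highest WT library. The means were 9.36 ± 0.299 and 25.3 ± 3.63 FPKM (SD, n = 3), a ratio of 2.70. The length implied for Mmp17 was 0.697 times that of its listed transcript, so its level relative to other genes is uncertain. Membrane-type metalloproteinases held by a transmembrane segment differed among themselves. Mmp14 fell from 68.5 ± 5.86 to 39.6 ± 2.04 FPKM (SD, n = 3; 57.9% of WT, adjusted p = 0.0019, limma). Mmp15 rose 1.54-fold (adjusted p = 0.0140), a call lost without HM-5 or HM-16 (up to 0.0650). Mmp24 did not pass the test (adjusted p = 0.348, limma). Of 26 other metalloproteinases and inhibitors 10 were tested and 0 were called by limma, with 2 at an unadjusted p under 0.05 and 1 called by voom on recovered reads. Among all genes tested limma called 18%. Mmp2, a gelatinase that Mmp14 activates, measured 10.6 and 10.8 FPKM in WT and cKO.

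Tcaf2 (ENSMUST00000031879; chr6:42623016-42645254, minus strand, 8 exons) encodes an associated factor of the cold-sensing channel TRPM8. Tcaf2 stood at 4.07, 3.56 and 3.37 FPKM in WT against 14.5, 11.3 and 13.5 FPKM in cKO, and was the only one of the 10 genes for which HC-10 was not the highest WT library. The means were 3.67 ± 0.362 and 13.1 ± 1.66 FPKM (SD, n = 3), a ratio of 3.58. Tcaf1, its paralogue and the next tested gene upstream at a distance of 64.8 kb, measured 2.90 FPKM in WT and 2.55 FPKM in cKO and did not pass the test (adjusted p = 0.518, limma). Trpm8 was not analysed here. Of the 17 listed TRP channels and partners 2 were tested, 1 rose and 0 fell. Among all genes tested 9.62% rose and 8.39% fell, and 2 genes are too few to compare with these shares. Trpv6, a calcium channel, rose from 0.629 ± 0.131 to 1.70 ± 0.267 FPKM (SD, n = 3, adjusted p = 0.00925, limma). It held 19 to 24 reads per WT library and passed the filter through the cKO libraries alone.

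Lonrf3 (ENSMUST00000016383; chrX:36328353-36362341, plus strand, 11 exons) encodes a protein with a RING finger, the fold of many ubiquitin ligases, and a LON substrate-binding domain. Lonrf3 stood at 4.14, 3.95 and 4.28 FPKM in WT against 12.3, 9.80 and 11.4 FPKM in cKO. The means were 4.12 ± 0.165 and 11.2 ± 1.26 FPKM (SD, n = 3), a ratio of 2.71. It is the X-linked gene of the set, and the libraries with high Xist, HC-8 and HM-16, gave the lowest WT value and the middle cKO value. Lonrf1 rose 1.38-fold (adjusted p = 0.0158, limma; named after its values were seen), a call lost without HM-5, HM-16 or HC-10 (up to 0.0693). Lonrf2 measured 3.67 FPKM in both groups. Over the 24 paralogues listed for the 10 genes 12 were tested, 4 rose and 1 fell, with a median log2 difference of 0.10. Among all genes tested 9.62% rose and 8.39% fell. Of the 4 that rose, Prkcd passed the filter through the cKO libraries alone. The length implied for Lonrf3 was 2.53 times that of its listed transcript, with the same limit as for Prkcb.

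Prr15 (ENSMUST00000059138; chr6:54325835-54330201, plus strand, 2 exons) encodes a small proline-rich protein whose molecular role is little known. Prr15 stood at 6.31, 6.19 and 6.59 FPKM in WT against 42.2, 33.5 and 43.4 FPKM in cKO. It reached the highest cKO level of the 10, 39.7 ± 5.38 FPKM against 6.37 ± 0.205 FPKM in WT (SD, n = 3), a ratio of 6.24. Its coefficient of variation in WT was 3.23%, close to the smallest of the 10, 3.20% in Mmp17. Prr15 overlaps 9130019P16Rik on the opposite strand, and since the strandedness of the counting is not given, reads of the pair cannot be told apart. Smaller annotated genes also overlap Prkcb, Tppp and Fig4.

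AK043676 bears the name of a cDNA clone, and no GENCODE gene of that name was found, so it has no position here. AK043676 stood at 4.95, 5.19 and 5.69 FPKM in WT against 25.03, 21.3 and 26.9 FPKM in cKO. The means were 5.27 ± 0.376 and 24.4 ± 2.82 FPKM (SD, n = 3), a ratio of 4.63, behind Gchfr and Prr15. The values imply a transcript of 4869 bases.

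**Figure D3:**
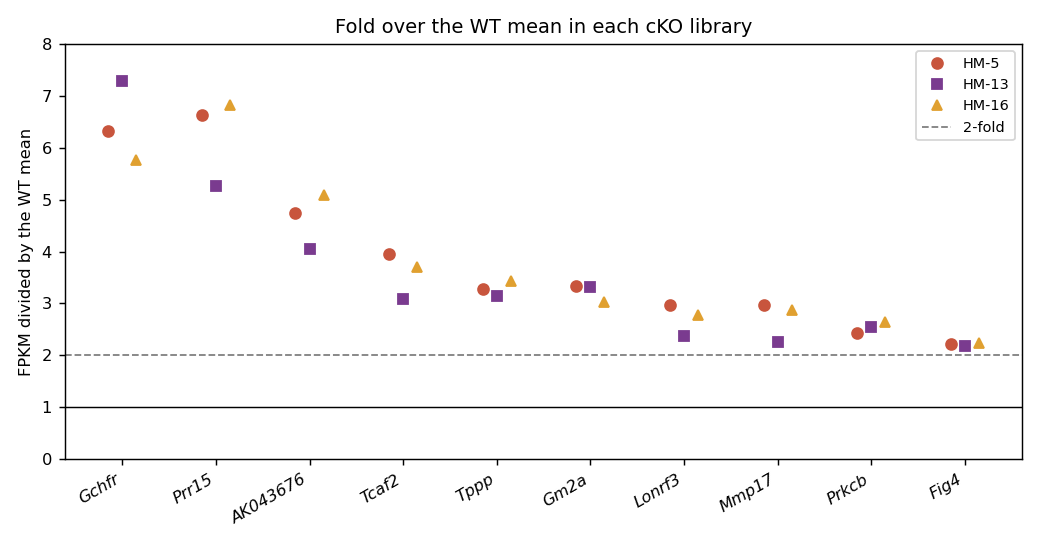
FPKM of each cKO library divided by the WT mean for the 10 genes on a linear axis, with a dashed line at 2-fold and a solid line at equality. The lowest points run from 2.18 in Fig4 to 5.76 in Gchfr, and all lie above the line.

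The spread within groups was on either side of that of all genes. The median coefficient of variation of the 10 genes was 8.55% in WT (3.20% to 18.9%) and 11.4% in cKO (1.44% to 14.3%), against 10.2% and 9.93% over all genes past the filter. In WT, 6 of the 10 genes lay below the median of all genes, and in cKO 4 of 10. Within the groups, HC-10 was the highest WT library for 9 of the 10 genes and HM-13 the lowest cKO library for 7. Among the 1815 other genes with all cKO libraries above all WT libraries these shares were 30.4% and 61.1%. Without HM-13 the ratios ran from 2.23 (Fig4) to 6.72 (Prr15). The remaining cKO libraries could not fall under 2 times the WT mean, since the lowest cKO library was at least 2.01 times the highest WT library. With library totals in place of the authors' scaling 6 of 10 genes kept every cKO library at 2 times the WT mean or more. These totals include Rn45s, 29.7% of the reads of HM-13, so this setting scales HM-13 down against the other libraries.

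The genes whose pattern was most like that of the 10 over the 6 libraries, by Pearson's correlation with the mean of their standardised log2(FPKM + 1), were Gm266 (r = 0.999), Tmem120a (0.998), Gm38426 (0.997), Pgd (0.996) and Asl (0.996). These correlations share the 6 libraries and the 2 groups and are a description. The ratios of these genes ranged from 1.17 in Pgd, an enzyme of the pentose phosphate pathway, to 7.04 in Gm266.

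**Figure D4:**
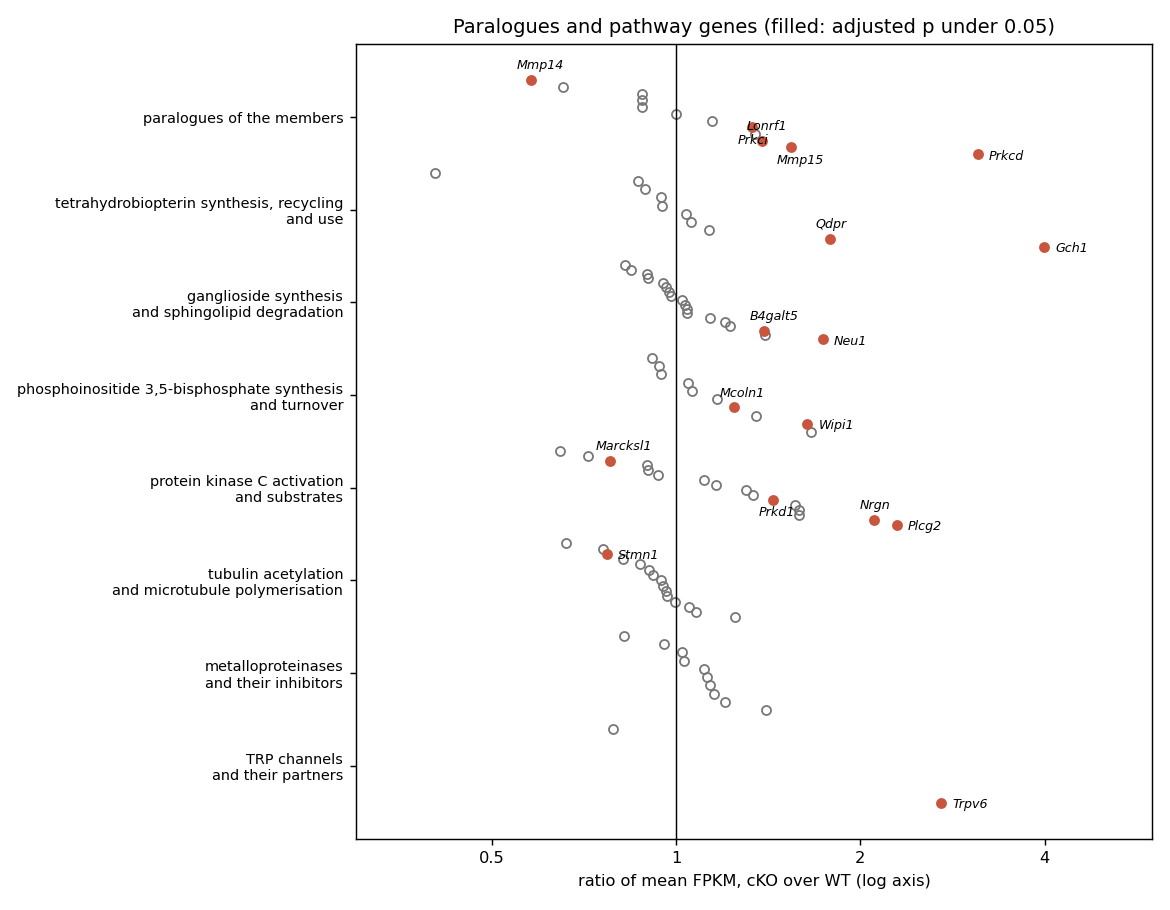
Ratio of mean FPKM in cKO to WT on a log axis for tested genes of the 8 lists, filled where the adjusted p was under 0.05 (limma, Benjamini-Hochberg). Gch1 has the highest ratio at 3.99, and Mmp14 the lowest among the genes called at 0.579.

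Over the 8 lists together, 93 of 193 genes were tested, 14 rose (15.1%) and 3 fell (3.23%), with a median log2 difference of 0.04 against -0.01 over all genes. Among all genes tested 9.62% rose, 8.39% fell and 18% were called in either direction. With library totals as the scaling, 6 rose and 4 fell. Of the genes that rose, 3 passed the filter through the cKO libraries alone (Gch1, Prkcd and Trpv6). Without HM-13, 16 rose and 5 fell. Of the 17 called genes named by rule here and among the neighbours, 10 lost their call with library totals, all but Mmp14, Qdpr, Gch1, Plcg2, Nrgn, Trpv6 and Gpx3. With quantile normalization Marcksl1 and Scrn1 lost theirs.

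The genes lying next to the 9 placed genes were then compared, to see whether neighbours differed too. Within 100 kb of a start site 9 other genes were tested, and 0 were called by limma (1 at an unadjusted p under 0.05) or by voom. Among all genes tested limma called 18%, and 9 genes are too few to tell 0 from that share. Their ratios ran from 0.819 to 1.07. The nearest neighbours of Gchfr were Rmdn3, 10.7 kb upstream on the opposite strand (39.7 and 42.4 FPKM in WT and cKO; adjusted p = 0.367), and Gm14137, 6.74 kb downstream (1.87 and 1.86 FPKM). Brd9, 71.6 kb upstream of Tppp, and Sfswap and Zfp11, 82.9 kb upstream and 85.9 kb downstream of Mmp17, did not pass the test either (limma).

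Between 100 and 500 kb, 17 of 58 genes were called. Over the whole window 10 of 67 rose and 7 fell, 25.4% of the neighbours against 18% of all genes. Of the 10 that rose, Bahd1 near Gchfr passed the filter through the cKO libraries alone (named after its values were seen). Bahd1 lay at 0.562, 0.762 and 0.699 FPKM in WT. With library totals as the scaling 4 rose and 0 fell. Gpx3, a secreted glutathione peroxidase 196 kb upstream of Gm2a, rose from 24.3 ± 1.43 to 47.7 ± 1.84 FPKM (SD, n = 3; ratio 1.97, adjusted p = 0.000775, limma). Slc36a1, a lysosomal amino acid transporter 106 kb downstream of Gm2a, rose 1.47-fold (adjusted p = 0.0336), and Scrn1, 241 kb downstream of Prr15, fell to 83.6% of its WT level (adjusted p = 0.0308; both limma). Slc36a1 lost its call in 4 of 6 fits without 1 library (up to 0.116) and Scrn1 in 5 of 6 (up to 0.113). The counts were uneven: 4 fell and 1 rose of 9 near Mmp17, 3 rose and 1 fell of 7 near Gm2a, 4 rose and 0 fell of 17 near Gchfr, and 0 were called of 7 near Prkcb, 5 near Lonrf3 and 2 near Tcaf2. The nearest tested genes of the other placed genes, Zbtb24 and Wasf1 (Fig4), Il13ra1 and Pgrmc1 (Lonrf3), Plk1 (Prkcb), Chn2 (Prr15), Casp2 (Tcaf2) and Exoc3 (Tppp), did not pass the test (limma).

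**Figure D5:**
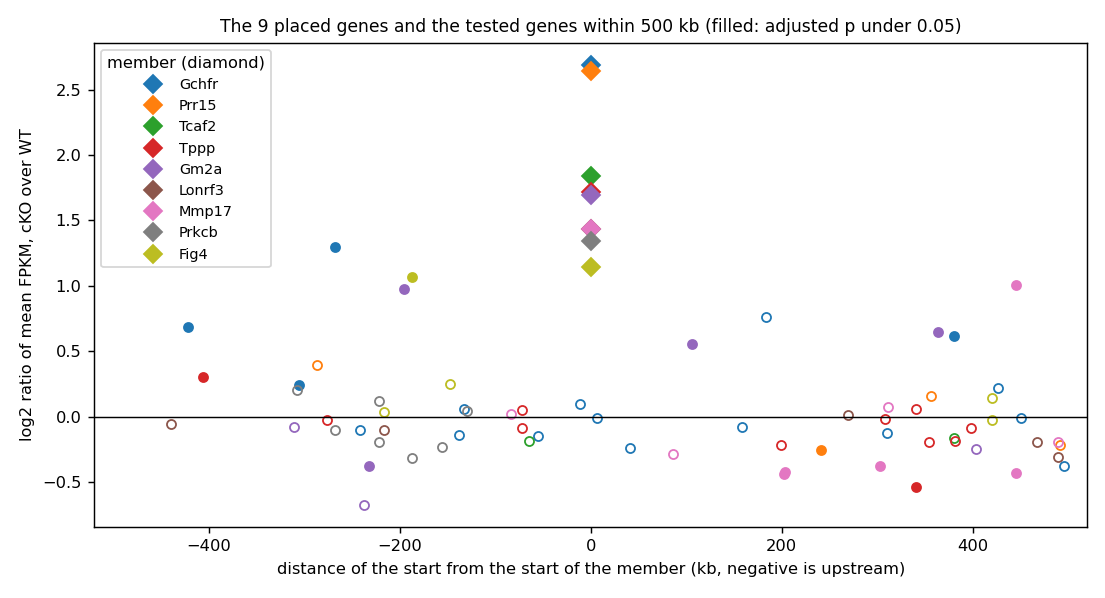
Log2 ratio of mean FPKM in cKO to WT against distance in kb between start sites for the neighbours (circles, coloured by gene) of the 9 placed genes (diamonds at 0), filled where the adjusted p was under 0.05 (limma). Within 100 kb none of 9 neighbours is filled, and beyond it 17 of 58 are. Among all genes tested 18% were called.

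Promoter sequence was available in the RefSeq table for 8 of the 10 genes, all but Mmp17 and AK043676. In the 250 upstream bases, searched on both strands, GGGCGG occurred in 7 of 8, in all but Lonrf3, against 32.7% of all 32851 promoters of the table and 60.7% of the 7365 promoters of genes past the filter. CCAAT occurred in 5 of 8 (33.8% and 36.0%), GCGC, which lies inside many CpG-rich runs, in 6 of 8 (42.2% and 73.5%), TATAAA in 1 of 8 (12.4% and 5.74%), CACGTG in 1 of 8 (6.02% and 8.34%) and TGACTCA in 0 of 8 (4.46% and 2.48%). The promoters held a median of 15 CpG dinucleotides, against 6 over all promoters and 16 over those of genes past the filter. The windows of Prr15, Prkcb and Tcaf2 overlap annotated exons of the same genes by 250, 250 and 213 bases, so in these 3 they are in part transcribed sequence. A match is a description of letters in the window.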

How the data were processed

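RNA was measured in 3 WT and 3 cKO libraries of mouse cortex. Per the submitters' processing notes, the tools were DESeq2 1.22.1, R 3.4.1, featureCounts 1.6.1, STAR 2.5.4b and bcl2fastq 1.8.4, and the build mm10. Their roles and the annotation were not given in the sources used here. Per the file headers, the deposited table gives FPKM for each library, the authors' mean normalized count over all libraries (a signal), the authors' log2 fold change, and the authors' p-value and FDR. From the deposited FPKM and mean normalized count, reads were recovered: 100% of values came out whole within 0.001 of a read. Read totals are sums over the 14379 rows, Rn45s included. Library totals as a scaling therefore count the Rn45s reads, which were 29.7% in HM-13. No label ties a library to an embryo, so p-values cover only the variation among these 6 libraries, part of which may be technical.

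For each of 12041 symbols the row of highest mean normalized count was used. Symbols reaching 1 FPKM in 3 or more libraries (9359) entered a limma fit (3.58.1, R 4.3.3; intensity trend, no block) of log2(FPKM + 1). Genes with a Benjamini-Hochberg adjusted p under 0.05 over all of them were called. Fold changes on that scale understate those of low genes, while ratios of mean FPKM carry no pseudocount. The fit was also run on simulated counts with the same dispersion (variation beyond counting error) for every gene and library differences in depth only. That run is simpler than these data, and its outcome is not used here. The 10 genes, the lists and the neighbour window were chosen with earlier results of these data known, and 1 gene is not reported here. Beside the 10, the genes named are up to 3 called genes with the smallest p from each list (or its first tested gene), the nearest tested gene on each side within 500 kb, the 5 genes most like the 10, and Hdac1 and Hdac2; members of these lists that did not pass the test and are named for their role, and those said to be named after their values were seen, are outside this rule. Alternatives were pseudocounts of 0.1 and 5, no filter, quantile normalization, library totals, voom on recovered reads, sums of rows, windows of 100 kb and 1 Mb, medians, and leaving out each library. Positions come from GENCODE M21 on GRCm38 and promoters from RefSeq on GRCm38.p6. Of the rows with a listed GENCODE transcript, 62.6% implied a length within 5% of it, so levels per length of different genes are approximate.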

Additional observations from a re-analysis of the deposited data

How the results depend on the processing

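Under 1 change of setting at a time, the 10 genes kept ratios between 2.11 and 7.16, and no ratio moved by more than 1.12 times. In each of the 10 genes the lowest cKO library stood at least 2.01 times above the highest WT library. Leaving out 1 library therefore could not bring a remaining cKO library under 2 times the WT mean. With library totals as the scaling, 6 of the 10 kept every cKO library at 2 times the WT mean or more. All 10 ratios were lower there, and the median log2 difference of all genes was -0.09. The count of all genes called, 1685, was 497 with library totals and 511 (without HM-5) to 1773 (without HM-13) when 1 library was left out, with 545 without HM-16, 888 without HC-10 and 1103 without HC-1. Voom on recovered reads called 1911. Of the called genes 53.4% were higher in cKO, a share of 45.4% (without HC-8) to 63.3% (without HC-1) when 1 library was left out, 49.7% with quantile normalization and 60.6% with library totals, so the majority direction turned without HC-8 and with quantile normalization. The count over the 8 lists, 17, was 10 with library totals and 3 (without HM-5 or HM-16) to 21 when 1 library was left out, with 11 without HC-10. The neighbour count, 17, was 4 with library totals, 0 within 100 kb, and 6 (without HM-5) to 16 when 1 library was left out, with 7 without HM-16 and 8 without HC-10. The cause of these shifts was not tested. Of the 17 genes outside the 10 that were called and named by the rule, Mmp14, Qdpr and Gpx3 kept their call in every alternative fit, and 0 reversed. Gch1, Prkcd, Trpv6 and the neighbour Bahd1 passed the filter only through the cKO libraries. They have no value in the fits without a cKO library, so these fits say nothing of their stability. No paired analysis was possible because the columns of the table carry no replicate numbers. Reads limit precision most for Gchfr, with 11 to 13 per WT library.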

Other observations

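In the authors' deposited table the log2 fold change of cKO over WT was below the log2 ratio of mean FPKM for 10 of the 10 genes, by 0.04 in Fig4 up to 0.89 in Gchfr. Gchfr has the lowest mean normalized count of the 10, 40.8 in the authors' deposited table. The cause of the gap was not tested.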
